A study of Mus musculus with 18 samples.

Results

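The guanylate-binding proteins (GBPs) and immunity-related GTPases (IRGs) were followed in bone marrow-derived macrophages (BMDMs) as 10 gene symbols taken by name: *Gbp2*, *Gbp3*, *Gbp5*, *Gbp7*, *Gbp9*, *Irgm1*, *Irgm2*, *Igtp*, *Iigp1* and *Tgtp1*. All 10 were found among the 16314 gene symbols of the count table, and all 10 were among the 12021 genes that passed the filter on low counts. The macrophages were grown from femoral marrow of *Prep*-/- mice, which lack a functional copy of the prolyl endopeptidase gene, and of their *Prep*+/- littermates on a C57BL6/J background, so the controls themselves carried a single working copy and no wild-type group was analysed here. Marrow cells were differentiated over 7 days in M-CSF at 50 ng/ml and were then left untreated (M0), given 50 ng/ml LPS for 24 h (M1), or given 20 ng/ml IL-4 with 20 ng/ml IL-13 for 24 h (M2). Each of the 6 groups held 3 replicate libraries of bulk RNA, 18 in all. The paper calls the 3 libraries of each group biological replicates. The age of the mice behind these cultures, and whether each replicate came from a mouse of its own, were not given in the sources used here. The p-values below therefore measure the spread between replicate cultures.

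GBPs and IRGs are large GTPases that macrophages make in quantity under interferon, mainly interferon-gamma, with IRF1 among the factors that act on them, and also under type I interferon. GBPs coat bacteria and the vacuoles that shelter bacteria and protozoa, and help to expose microbial products to inflammasomes. Among the IRGs, the effectors *Iigp1* (Irga6) and *Tgtp1* (Irgb6) load onto parasite vacuoles and disrupt them, while *Irgm1*, *Irgm2* and *Igtp* (Irgm3) are regulators that sit on host membranes and hold the effectors inactive there. LPS reaches the same genes because macrophages that sense it through TLR4 make interferon-beta.

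The members lie in clusters of related genes. On GRCm39 in the GENCODE annotation, the plus strand of chromosome 3 holds *Gbp5* (chr3:142199739-142228105), *Gbp7* (chr3:142236044-142255910), *Gbp3* (chr3:142265731-142278979) and *Gbp2* (chr3:142326349-142343779). *Gbp9* lies on the minus strand of chromosome 5 (chr5:105224332-105287452), where its annotated span overlaps *Gbp4* and *Gbp8* on the same strand. *Irgm1* (chr11:48752795-48763164) and *Tgtp1* (chr11:48876154-48884999) share a cluster on the minus strand of chromosome 11. The plus strand of the same chromosome holds *Igtp* (chr11:58089840-58098417) and *Irgm2* (chr11:58090444-58113615), whose annotated spans overlap. *Iigp1* lies on the plus strand of chromosome 18 (chr18:60506680-60525706). All 10 are protein-coding.

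Close copies limit how exactly reads could be assigned. The *Tgtp1* transcript matched that of *Tgtp2* at 99.8% identity over 2811 of its 2885 bases, so the counts of these 2 genes cannot be kept apart with confidence. *Gbp9* matched *Gbp11* at 88% over 2713 of 5655 bases and *Gbp4* at 86.9% over 2673. It also matched *Gbp6*, *Gbp8*, *Gbp10* and *Gm43302* at 85.4% to 85.8%. *Igtp* matched *Irgm2* at 89.9% over 542 of 2285 bases. *Iigp1* matched *Iigp1c* at 85.8% over 1639 of 3040 bases and *Gm5970* at 88.2% over 1224. *Gbp7* matched the overlapping gene *Gm43802* at 100% over 637 of 5655 bases. No match of at least 85% identity over 11% of the transcript was found for *Gbp2*, *Gbp3*, *Gbp5* or *Irgm1*. How the authors treated reads that match several genes was not given in the sources used here.

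Interferon acts on genes of this kind through short DNA elements of 2 kinds, which need not both be present. The promoters below are shown as a description. Whether these elements bear on the changes in these libraries was not tested. The interferon-stimulated response element (ISRE) binds interferon regulatory factors, and the gamma-activated site (GAS) serves the response to interferon-gamma. RefSeq promoters on GRCm38.p6, each from 250 bases before to 50 bases after a RefSeq gene start, were available for 8 of the 10 members, with 2 starts for *Gbp3*. These starts can differ from those of the GENCODE spans above. On GRCm39 the *Irgm2* promoter (chr11:58105553-58105852) lies inside the GENCODE span of its gene, as do those of *Gbp5* and *Tgtp1*. *Gbp9* and *Iigp1* had no entry. GAAANNGAA was searched on both strands as an ISRE core, and TTCNNNGAA, which reads the same on both strands, as a GAS. In the lines below the capitals mark every match to either motif, and no match of one overlapped a match of the other.
Gbp2, chr3:142620413-142620712, plus strand: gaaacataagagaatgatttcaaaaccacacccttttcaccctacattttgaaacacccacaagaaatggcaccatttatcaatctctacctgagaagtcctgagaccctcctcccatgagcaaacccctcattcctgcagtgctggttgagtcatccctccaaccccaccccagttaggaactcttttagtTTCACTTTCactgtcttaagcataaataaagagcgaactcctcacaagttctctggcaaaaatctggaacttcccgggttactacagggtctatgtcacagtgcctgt
Gbp5, chr3:142496684-142496983, plus strand: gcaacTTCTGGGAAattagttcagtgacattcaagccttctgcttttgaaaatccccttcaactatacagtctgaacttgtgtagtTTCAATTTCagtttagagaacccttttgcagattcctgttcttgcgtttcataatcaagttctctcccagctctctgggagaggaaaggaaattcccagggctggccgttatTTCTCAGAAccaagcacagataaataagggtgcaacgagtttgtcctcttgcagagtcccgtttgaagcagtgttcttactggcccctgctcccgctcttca
Igtp, chr11:58199306-58199605, plus strand: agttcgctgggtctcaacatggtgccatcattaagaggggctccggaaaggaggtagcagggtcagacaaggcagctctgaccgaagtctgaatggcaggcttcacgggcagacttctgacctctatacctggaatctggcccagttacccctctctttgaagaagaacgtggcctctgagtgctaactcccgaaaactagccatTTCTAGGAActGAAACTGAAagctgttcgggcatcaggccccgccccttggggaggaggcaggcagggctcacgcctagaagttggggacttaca
Irgm2, chr11:58214727-58215026, plus strand: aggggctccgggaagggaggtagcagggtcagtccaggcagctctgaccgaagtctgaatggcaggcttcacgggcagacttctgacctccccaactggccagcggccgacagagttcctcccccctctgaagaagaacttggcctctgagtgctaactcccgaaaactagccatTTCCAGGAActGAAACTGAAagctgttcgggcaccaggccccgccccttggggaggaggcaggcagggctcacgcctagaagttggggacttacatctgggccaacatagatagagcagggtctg
Tgtp1, chr11:48992197-48992496, minus strand: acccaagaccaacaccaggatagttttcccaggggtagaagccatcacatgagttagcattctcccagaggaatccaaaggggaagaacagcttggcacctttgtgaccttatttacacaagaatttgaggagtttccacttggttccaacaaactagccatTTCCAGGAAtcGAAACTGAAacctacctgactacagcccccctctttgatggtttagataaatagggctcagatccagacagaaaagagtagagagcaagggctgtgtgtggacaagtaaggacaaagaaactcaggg

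The ISRE core was found in 8 of the 9 member promoters (88.9%), against 8.56% of 32851 RefSeq promoters of the same length. The GAS was found in 5 of the 9 (55.6%), against 8.3% of all promoters, and both were found in the same 5, against 1.07% of all. In *Igtp*, *Irgm2* and *Tgtp1* the GAS lay directly before the ISRE core with 2 bases between them, starting 45, 75 and 88 bases before the RefSeq gene start. *Igtp* and *Irgm2* promoters shared a run of 61 identical bases. In *Gbp5* and *Gbp7* the nearest such pair was separated by 72 and 26 bases. The promoters of *Gbp2* and *Irgm1* and a promoter of *Gbp3* held the ISRE core without a GAS. A match is a run of letters and not a measured binding site.

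Library totals lay between 19068237 and 22598279 counts, and every pair of replicates differed by more than sampling noise. The size of that difference, as chi-square per degree of freedom over genes, was uneven. It was 106 to 114 for pairs with *Prep*-/- M0 replicate 3 or *Prep*-/- M2 replicate 3, and 9.5 to 47.3 for the other pairs. *Prep* itself was at 26.0 to 42.5 CPM (counts scaled to a common library size, with TMM scaling) in the 9 *Prep*+/- libraries and at 1.48 to 3.22 CPM in the 9 *Prep*-/- libraries, so every library matched its labelled genotype. The 8 macrophage markers summed to between 10000 and 48200 CPM, and dendritic cell markers (5 of 5 in the table) to 2.64 CPM or less. T cell and NK cell markers (4 of 10 in the table) summed to between 0.0892 and 1.40 CPM, where *Cd3e*, *Cd3g*, *Cd8a*, *Ncr1*, *Gzma* and *Prf1* were not analysed here. DEGs below had an adjusted p under 0.05 (edgeR's quasi-likelihood test, Benjamini-Hochberg over the 12021 genes) and a fold change over 1.5.

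The members were lowly to moderately expressed in resting *Prep*+/- BMDMs and highest under LPS in both genotypes. Per kilobase of the canonical transcript, which allows levels to be compared between genes, the regulator *Irgm1* led in *Prep*+/- M0 cells at 19.3 ± 0.994 CPM per kb (SD, n = 3). *Igtp* followed at 8.19 ± 0.576, *Irgm2* at 5.86 ± 0.465 and *Gbp2* at 4.60 ± 0.583 CPM per kb, while the effector *Iigp1* was at 0.172 ± 0.0241 CPM per kb. Among *Prep*-/- M1 cells *Irgm1* (175 ± 40.2 CPM per kb) and *Gbp2* (172 ± 68.3 CPM per kb) stood side by side within their spread. In *Prep*-/- M2 cells *Gbp2* had the highest mean of the 10, at 60.9 ± 23.9 CPM per kb, above *Irgm1* at 34.7 ± 5.83, though their spreads overlapped.

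**Figure D1:**
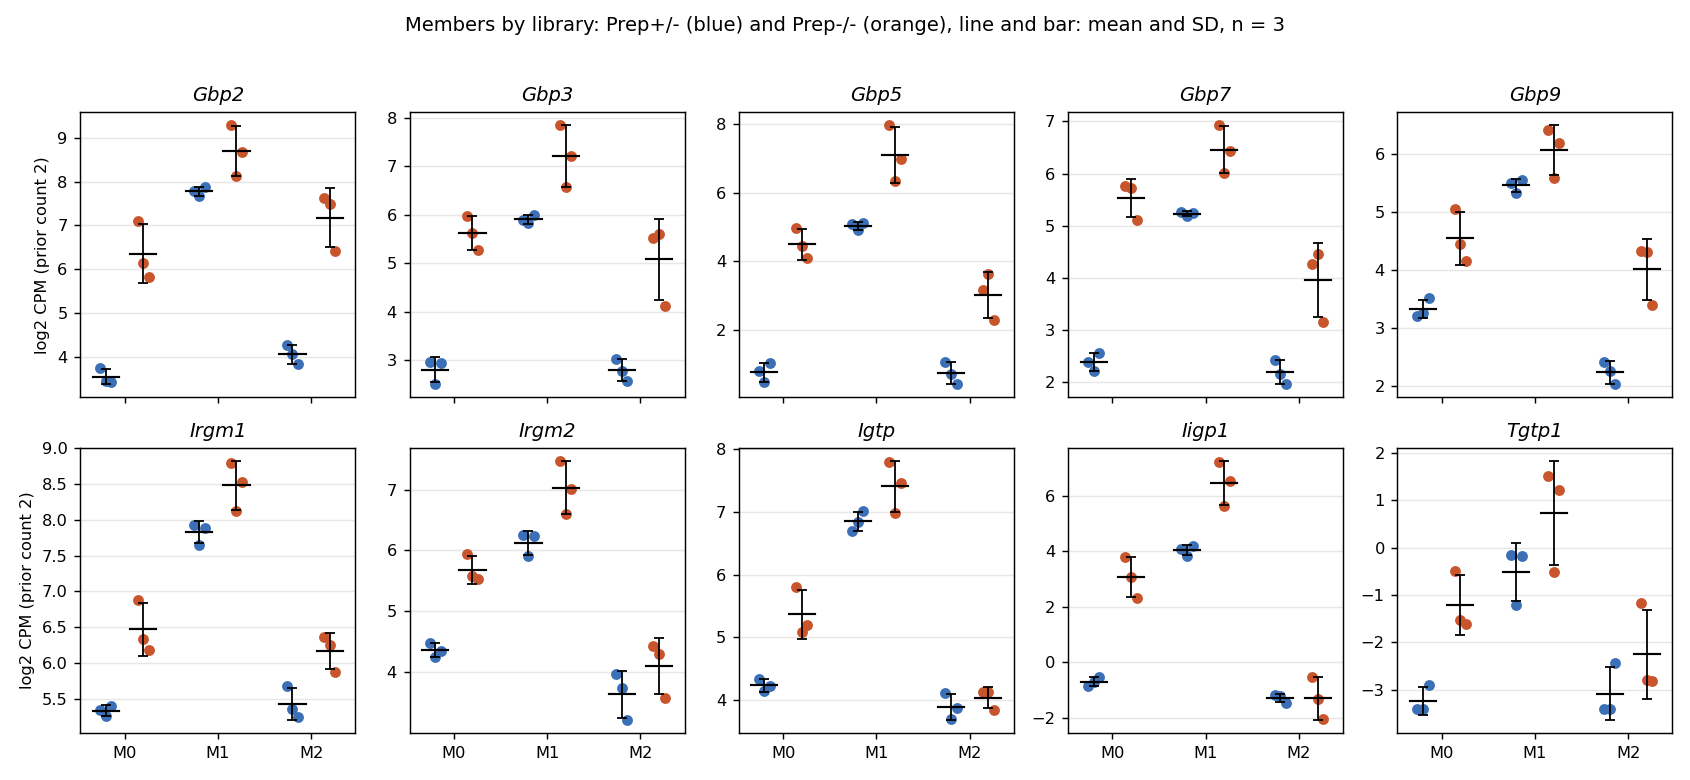
Level of each member in every library, as log2 CPM with a prior count of 2 (vertical axis, scaled separately for each gene), for *Prep*+/- (blue) and *Prep*-/- (orange) BMDMs in the M0, M1 and M2 states. Points are libraries, and lines with bars are the mean and SD of 3. All *Prep*-/- M0 points lie above all *Prep*+/- M0 points in each of the 10 panels, and M1 is the highest state of both genotypes throughout.

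The order of the 6 groups was alike for most members. *Prep*-/- M1 was the highest group for all 10, followed by *Prep*+/- M1 for 9 of them, with libraries that overlapped between these groups for *Igtp* and *Tgtp1*. For *Gbp7* the untreated knockout cells came next, with 54.0, 52.9 and 34.6 CPM in *Prep*-/- M0 against 38.6, 36.4 and 37.8 CPM in *Prep*+/- M1. These libraries overlapped, and so did those of the same 2 groups for *Gbp3*, *Gbp5*, *Irgm2* and *Tgtp1*. Resting *Prep*-/- BMDMs and LPS-treated *Prep*+/- BMDMs thus overlapped for 5 of the 10 members, a description with no test. For *Gbp3*, *Gbp5*, *Irgm2* and *Tgtp1* the overlap rested on *Prep*-/- M0 replicate 1 alone. The share of all genes that overlapped between these 2 groups was not computed. At the bottom of the order, *Prep*+/- M0 and *Prep*+/- M2 were neighbours for 7 members and overlapped for *Gbp3*, *Gbp5*, *Gbp7*, *Irgm1* and *Tgtp1*. For this pair of groups, too, the share of all genes that overlapped was not computed.

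In the M0 state, loss of *Prep* was accompanied by higher expression of every member. All 10 were DEGs in the higher direction (background: 15.4% of the 12021 genes were called higher and 17.2% lower), and in all 10 every *Prep*-/- library lay above every *Prep*+/- library (background 25.5%). The rises fell into a large class, with the chromosome 3 GBPs and *Iigp1* up 7.20-fold to 17.3-fold by the ratio of mean CPM, and a moderate class, with *Gbp9*, *Irgm1*, *Irgm2* and *Igtp* up 2.25-fold to 2.52-fold. *Tgtp1* is given by its counts. The median log2 fold change was 2.92 for the 5 GBPs and 1.33 for the 5 IRGs, against 0.02 over all genes. In bulk RNA, more cells expressing a gene and more RNA per cell cannot be told apart.

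*Gbp2*, which coats pathogen vacuoles and bacteria, was at 13.4, 10.9 and 10.8 CPM in the *Prep*+/- M0 libraries and at 137.5, 70.5 and 56.9 CPM in the *Prep*-/- M0 libraries. Replicate 1 of the knockout was the highest, and even the lowest knockout library was well above the controls (log2 fold change 2.92 ± 0.36 SE, adjusted p = 1.12e-05 by edgeR's quasi-likelihood test). *Gbp5*, which promotes NLRP3 and AIM2 inflammasome responses, was at 1.64, 1.30 and 1.96 CPM in controls and at 31.5, 21.6 and 16.9 CPM in knockout libraries. The groups were apart, with a log2 fold change of 3.83 ± 0.42 (adjusted p = 4.09e-06). *Gbp7*, which has been linked to oxidative killing of bacteria, was at 5.15, 4.54 and 5.81 CPM in controls against the 34.6 to 54.0 CPM given above (log2 fold change 3.19 ± 0.30, adjusted p = 1.19e-06). *Gbp3* lay between 5.56 and 7.75 CPM in controls and between 38.6 and 63.0 CPM in knockout libraries (log2 fold change 2.85 ± 0.36, adjusted p = 1.24e-05).

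The effector *Iigp1* was barely detected in *Prep*+/- M0 libraries, at 10, 13 and 15 counts (0.456, 0.513 and 0.601 CPM). The *Prep*-/- M0 libraries held 292, 201 and 107 counts (13.8, 8.41 and 4.94 CPM). The groups were apart, with replicate 1 again the highest knockout library, and the log2 fold change was 4.09 ± 0.48 (adjusted p = 6.99e-06). *Tgtp1*, the other effector, held 0, 0 and 1 counts in the *Prep*+/- M0 libraries and 13, 6 and 5 in the *Prep*-/- M0 libraries. From the summed counts, 24 against 1, the ratio was 26 with an exact 95% interval of 4.24 to 1070 that covers counting error only. With the counts of *Tgtp1* and its near-identical copy *Tgtp2* added together, an alternative chosen after the data were seen, the log2 fold change was 2.91 (adjusted p = 0.000388).

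The 3 regulatory IRGs and *Gbp9* changed less in the M0 state. *Irgm1* was at 40.55, 38.1 and 42.2 CPM in controls and at 118, 81.1 and 72.6 CPM in knockout libraries, apart in all (log2 fold change 1.17 ± 0.20, adjusted p = 0.000152). *Igtp* was at 20.1, 17.5 and 18.6 CPM in controls and 56.0, 34.0 and 36.6 CPM in knockout libraries (log2 fold change 1.17 ± 0.20, adjusted p = 0.000201). Replicate 1 stood above the other 2 knockout libraries in both genes. *Irgm2* lay at 18.98 to 22.2 CPM against 45.9 to 61.4 CPM (log2 fold change 1.33 ± 0.24, adjusted p = 0.000268). *Gbp9* lay at 9.16 to 11.3 CPM against 17.6 to 32.9 CPM (log2 fold change 1.27 ± 0.26, adjusted p = 0.000796). B cell markers (3 of 5 in the table) summed to 8.66 to 11.5 CPM in *Prep*-/- M0 and 3.01 to 4.78 CPM in *Prep*+/- M0 libraries, and granulocyte markers (6 of 6 in the table) to 33.2 to 73.9 CPM against 15.4 to 23.5 CPM. Dendritic cell markers summed to 0.876 to 1.17 CPM against 0.16 to 0.41 CPM. The macrophage markers themselves summed to 30400 to 48200 CPM against 19000 to 22400 CPM, and 6 of the 8 were higher DEGs. Their part in the result was not tested.

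Under LPS the knockout effect had the same direction, with lower fitted values for all 10 members. In M1, 8 of the 10 members were higher DEGs (background: 12.3% higher and 10.2% lower), and every *Prep*-/- library lay above every *Prep*+/- library for 8 of the 10 (background 29.8%). The median log2 fold change was 1.27 for GBPs and 0.94 for IRGs, against 0.04 over all genes. *Iigp1* had the largest fitted difference, at 16.8, 14.3 and 18.1 CPM in *Prep*+/- M1 libraries and 150.1, 49.8 and 93.0 CPM in *Prep*-/- M1 libraries. The lowest knockout library was still above every control (log2 fold change 2.57 ± 0.35, adjusted p = 0.000115).

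*Gbp5* came next, with 33.8, 30.0 and 34.7 CPM in *Prep*+/- M1 and 249.7, 81.3 and 126 CPM in *Prep*-/- M1 libraries. The control libraries were tightly grouped and the knockout libraries widely spread, with no overlap (log2 fold change 2.22 ± 0.35, adjusted p = 0.000313). *Gbp3* rose by 1.40 ± 0.33 on the log2 scale (adjusted p = 0.00404) and *Gbp7* by 1.27 ± 0.27 (adjusted p = 0.00223). *Gbp2* was at 220.3, 205 and 237 CPM against 624, 281 and 406 CPM, apart by a smaller margin (log2 fold change 0.98 ± 0.33, adjusted p = 0.0285). *Irgm2* rose by 0.94 ± 0.23 (adjusted p = 0.00594) and *Irgm1* by 0.68 ± 0.19 (adjusted p = 0.0119).

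*Igtp* passed the fold criterion narrowly in M1, and the call was lost in 12 of 16 alternatives, DESeq2 (log2 fold change 0.56) among them. Its libraries were at 104, 115 and 129 CPM against 222, 126 and 176 CPM. Replicate 2 of the knockout lay inside the control range, and the log2 fold change was 0.59 ± 0.20 (adjusted p = 0.0264). The members that were not DEGs in M1 had values on the same side: *Gbp9* differed by 0.64 (95% interval 0.12 to 1.17, adjusted p = 0.0516) with its libraries apart, and *Tgtp1* held 15, 6 and 13 counts against 53, 12 and 44 (log2 fold change 1.53, 95% interval 0.23 to 2.82, adjusted p = 0.0611). Summed with *Tgtp2*, *Tgtp1* was higher in the knockout by 2.23 (adjusted p = 0.0012). With *Prep*-/- M1 replicate 2 left out all 10 were DEGs, *Gbp9* at 0.84 (adjusted p = 0.0191) and *Tgtp1* at 1.94 (adjusted p = 0.0212). Without *Prep*-/- M1 replicate 1 the DEGs fell to 4 (*Gbp3*, *Gbp5*, *Gbp7* and *Iigp1*), and without *Prep*+/- M1 replicate 2 to 5 (those 4 and *Irgm2*). *Gbp2* was not a DEG without *Prep*+/- M1 replicate 1 (adjusted p = 0.0652) or replicate 3 (adjusted p = 0.0632), and *Igtp* was not without *Prep*+/- M1 replicate 1 (adjusted p = 0.0891) or *Prep*-/- M1 replicate 3 (adjusted p = 0.0578). T cell and NK cell markers summed to 0.865 to 1.40 CPM in *Prep*-/- M1 and 0.225 to 0.424 CPM in *Prep*+/- M1 libraries, and B cell markers to 5.09 to 6.96 CPM against 2.06 to 2.59 CPM. Granulocyte markers went the other way, at 35 to 47.6 CPM against 56.8 to 108 CPM, as did macrophage markers, at 31000 to 37000 CPM against 45700 to 47200 CPM, and stromal and endothelial markers (6 of 6 in the table), at 3.46 to 17.6 CPM against 21 to 22.3 CPM. Their part in the result was not tested.

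In the M2 state the DEGs were mostly GBPs. All 5 GBPs were higher DEGs, at log2 fold changes of 1.85 to 3.21, whereas among the 5 IRGs only *Irgm1* was a DEG. The 6 DEGs of 10 compare with a background of 6.37% called higher and 9.82% called lower, and the same 6 members had every *Prep*-/- library above every *Prep*+/- library (background 21.2%). The median log2 fold change was 2.42 for GBPs and 0.47 for IRGs, against 0.03 over all genes. The difference between the subfamilies was not tested. The macrophage markers summed to 13900 to 19600 CPM in *Prep*-/- M2 and 10000 to 12200 CPM in *Prep*+/- M2 libraries, and their part in the result was not tested.

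*Gbp2* showed the largest M2 effect among the DEGs, at 19.2, 16.7 and 14.3 CPM in *Prep*+/- and 199, 179.8 and 85.25 CPM in *Prep*-/- libraries. Replicate 3 of the knockout was at less than the level of the other 2 yet far above the controls (log2 fold change 3.21 ± 0.36, adjusted p = 1.94e-05). *Gbp5* was at 2.003, 1.55 and 1.25 CPM against 8.80, 12.2 and 4.84 CPM (log2 fold change 2.42 ± 0.43, adjusted p = 0.000655). *Gbp3* rose by 2.43 ± 0.35 (adjusted p = 0.000145), *Gbp7* by 1.87 ± 0.30 (adjusted p = 0.000276) and *Gbp9* by 1.85 ± 0.28 (adjusted p = 0.000167). Replicate 3 was the lowest knockout library for each of these GBPs.

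*Irgm1* was at 51.1, 41.0 and 37.9 CPM in *Prep*+/- M2 and at 82.2, 76.1 and 58.8 CPM in *Prep*-/- M2 libraries, apart but close (log2 fold change 0.74 ± 0.19, adjusted p = 0.0107). Without *Prep*-/- M2 replicate 1 its adjusted p was 0.0531. *Igtp* was at 17.1, 12.8 and 14.5 CPM against 17.4, 17.3 and 14.2 CPM, and only *Prep*-/- M2 replicate 3 lay inside the control range. Its log2 fold change of 0.14 had a 95% interval of -0.30 to 0.57 (adjusted p = 0.67). *Iigp1* held 8, 8 and 6 counts against 12, 6 and 3, so that this effector was near the detection limit in both genotypes (log2 fold change 0.13, 95% interval -1.59 to 1.85, adjusted p = 0.93). *Irgm2* differed by 0.47 (95% interval -0.04 to 0.99, adjusted p = 0.171), and by 0.71 without *Prep*-/- M2 replicate 3 (adjusted p = 0.0272). *Tgtp1* held 0, 0 and 2 counts against 7, 1 and 1, and its sum with *Tgtp2* was higher in the knockout by 2.02 (adjusted p = 0.028).

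**Figure D2:**
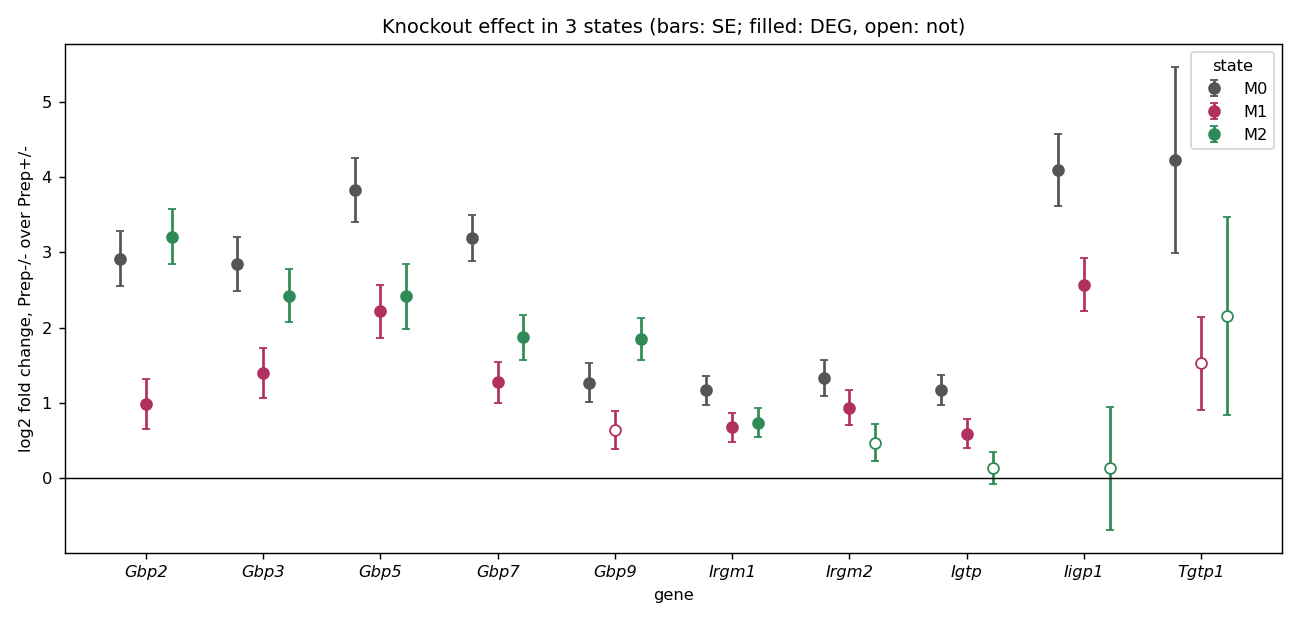
Log2 fold change of *Prep*-/- over *Prep*+/- BMDMs (vertical axis) for each member in M0 (grey), M1 (magenta) and M2 (green), with bars for the SE and filled symbols for DEGs. The 5 GBPs stay between 1.85 and 3.21 in M2, while *Igtp* and *Iigp1* drop to 0.14 and 0.13.

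LPS raised every member in both genotypes. In *Prep*+/- BMDMs all 10 were higher DEGs in M1 than in M0 (background: 16.7% higher and 20.9% lower), at log2 fold changes of 1.78 to 4.95 for the 9 members other than *Tgtp1*. *Tgtp1*, with 34 counts against 1, had a ratio of 46.5 (exact 95% interval 7.79 to 1890, counting error only). In *Prep*-/- BMDMs all 10 were again higher DEGs (background: 20.9% higher and 21% lower), at 0.95 to 3.43. These comparisons share their libraries with the knockout comparisons above. *Iigp1* had a ratio of mean CPM of 31.4 in *Prep*+/- cells (log2 fold change 4.95 ± 0.47, adjusted p = 2.28e-07) and of 10.8 in *Prep*-/- cells (3.43 ± 0.37, adjusted p = 8.1e-07). *Gbp5* rose 20.1-fold in *Prep*+/- and 6.53-fold in *Prep*-/- cells by the same measure, *Gbp2* 18.9-fold and 4.95-fold, and *Gbp7* 7.28-fold and 1.93-fold. The regulator *Irgm1* rose 5.64-fold and 4.02-fold. Without *Prep*-/- M1 replicate 1, *Gbp7* was no longer a DEG in the *Prep*-/- response (log2 fold change 0.64, adjusted p = 0.0629).

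The knockout effect was smaller in M1 than in M0 for the 4 GBPs of chromosome 3. The test of the difference itself called *Gbp2* (-1.93 ± 0.48 on the log2 scale, adjusted p = 0.00819), *Gbp7* (-1.92 ± 0.39, adjusted p = 0.00262), *Gbp5* (-1.61 ± 0.54, adjusted p = 0.0374) and *Gbp3* (-1.45 ± 0.47, adjusted p = 0.0337). These are 4 lower calls of 10 (background: 12% higher and 9.15% lower). *Gbp2* and *Gbp7* passed with any of the 12 libraries left out. *Gbp3* and *Gbp5* both failed without *Prep*+/- M0 replicate 2 or 3, *Prep*+/- M1 replicate 2 or 3, *Prep*-/- M0 replicate 1, or *Prep*-/- M1 replicate 2 or 3 (adjusted p from 0.0557 to 0.0859 for *Gbp3* and from 0.0554 to 0.0951 for *Gbp5*). *Gbp5* failed also without *Prep*+/- M0 replicate 1 (adjusted p = 0.0593) or *Prep*+/- M1 replicate 1 (adjusted p = 0.0536). For *Gbp9* and the IRGs other than *Tgtp1* the differences ran from -1.52 to -0.40 and did not pass the test. *Iigp1*, at -1.52, passed without *Prep*-/- M0 replicate 3 (adjusted p = 0.0283), without *Prep*-/- M1 replicate 1 (adjusted p = 0.0173) and by DESeq2 (adjusted p = 0.0307), and *Igtp* passed without *Prep*-/- M1 replicate 1 (adjusted p = 0.0461). *Tgtp1* (adjusted p = 0.188) was at the floor in *Prep*+/- M0, so its fitted difference is not given.

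**Figure D3:**
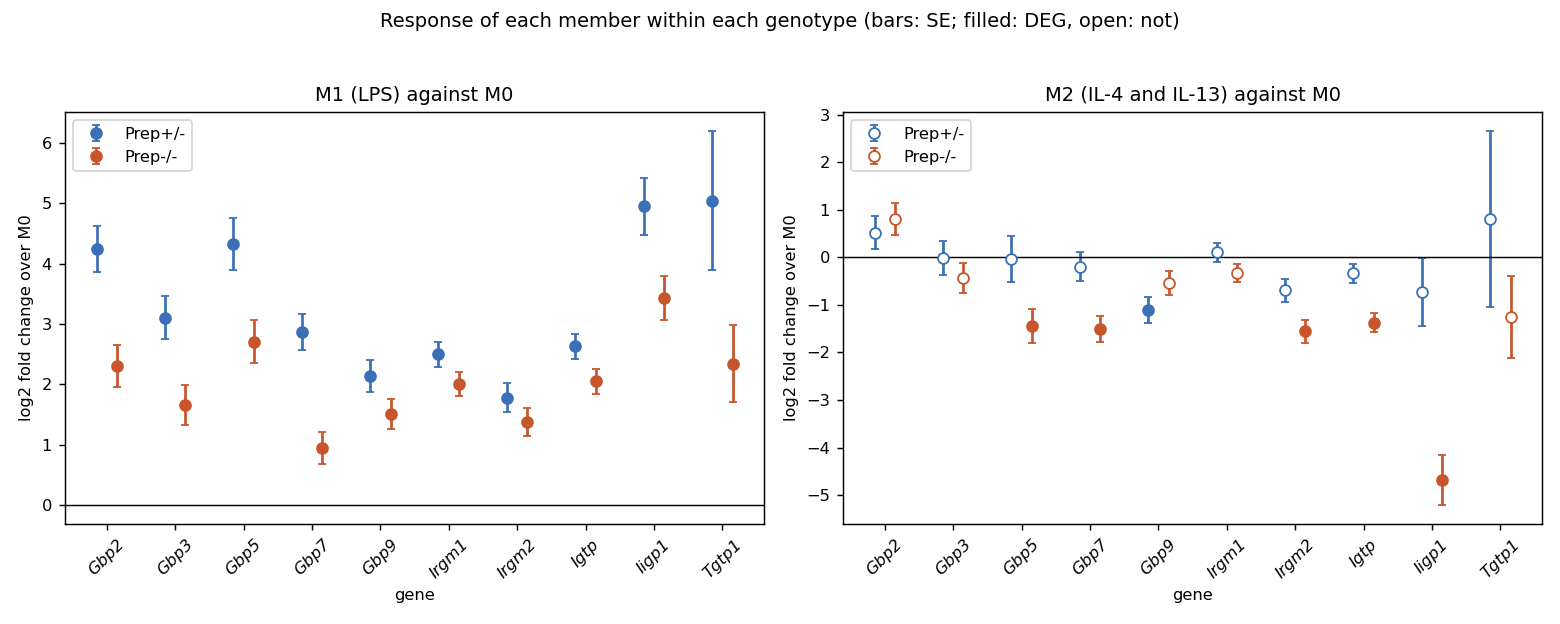
Log2 fold change over M0 (vertical axes) of each member in *Prep*+/- (blue) and *Prep*-/- (orange) BMDMs, for M1 on the left and M2 on the right, with bars for the SE and filled symbols for DEGs. In M1 all symbols are filled, with the blue above the orange for each gene, and in M2 *Iigp1* in *Prep*-/- cells stands lowest at -4.69.

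Under IL-4 with IL-13, 1 of the 10 members was a DEG in *Prep*+/- BMDMs, and it was lower in M2 than in M0 (background: 6.09% higher and 6.77% lower). The gene was *Gbp9*, at 5.20, 4.70 and 3.97 CPM in M2 against 9.16, 9.47 and 11.3 CPM in M0, with the groups apart (log2 fold change -1.11 ± 0.28, adjusted p = 0.00893). *Irgm2* differed by -0.69 (95% interval -1.20 to -0.18, adjusted p = 0.0575). Without *Prep*+/- M2 replicate 1 it was a DEG (-0.89, adjusted p = 0.041). The others ranged from -0.73 to 0.52, apart from *Tgtp1*, which held 0, 0 and 1 counts in M0 and 0, 0 and 2 in M2.

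In *Prep*-/- BMDMs, IL-4 with IL-13 went with lower levels of 5 members (background: 14.7% higher and 15.5% lower). *Iigp1* had the largest fall, from 292, 201 and 107 counts in M0 to 12, 6 and 3 counts in M2 (log2 fold change -4.69 ± 0.53, adjusted p = 2.72e-06). *Irgm2* fell by 1.55 ± 0.24 on the log2 scale (adjusted p = 7.79e-05), *Gbp7* by 1.51 ± 0.28 (adjusted p = 0.000348), *Gbp5* by 1.44 ± 0.36 (adjusted p = 0.00412) and *Igtp* by 1.37 ± 0.20 (adjusted p = 5.21e-05). The libraries of the 2 states were apart for all 5, but the share of all genes that were apart between these 2 groups was not computed. *Gbp2* had higher values in M2, at 199, 179.8 and 85.25 CPM against 137.5, 70.5 and 56.9 CPM, with the groups overlapping (log2 fold change 0.81, 95% interval 0.11 to 1.51, adjusted p = 0.0576). Without *Prep*-/- M0 replicate 1 it was a DEG (1.28, adjusted p = 0.00541), as it was without *Prep*-/- M2 replicate 3 (1.10, adjusted p = 0.00894).

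The knockout effect was smaller in M2 than in M0 for 2 IRGs (2 lower calls of 10, background: 4.53% higher and 4.13% lower). They were *Iigp1* (-3.96 ± 1.001, adjusted p = 0.0213) and *Igtp* (-1.03 ± 0.29, adjusted p = 0.0334). *Gbp7* had a difference of -1.31 ± 0.41 (adjusted p = 0.0542) and *Gbp5* of -1.41 ± 0.61 (adjusted p = 0.154). *Gbp2* (0.29, 95% interval -0.72 to 1.30) and *Gbp9* (0.58, 95% interval -0.21 to 1.37) had values on the other side, with adjusted p = 0.744 and 0.348. Without *Prep*-/- M2 replicate 3, or without *Prep*+/- M2 replicate 1, neither *Iigp1* (adjusted p = 0.0558 and 0.0667) nor *Igtp* (adjusted p = 0.0727 and 0.0936) passed. *Iigp1* failed also without *Prep*+/- M2 replicate 2 (adjusted p = 0.0639), and *Igtp* without *Prep*+/- M0 replicate 2 or 3, *Prep*+/- M2 replicate 3 or *Prep*-/- M0 replicate 1 (adjusted p from 0.0536 to 0.0836). *Gbp7* passed without *Prep*-/- M0 replicate 3 (adjusted p = 0.0321) or *Prep*-/- M2 replicate 2 (adjusted p = 0.0236). It passed also by DESeq2 (-1.29, adjusted p = 0.0195) and by edgeR with no filter on low counts (adjusted p = 0.0491).

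In some libraries all members lay on the same side of their group mean, and in others they were split. In *Prep*-/- M0 replicate 1 all 10 members lay above their group mean of log2 CPM, by 0.49 on average, and in replicate 3 all 10 lay below it, by 0.39 on average. For M1 of the same genotype, the library with all 10 above the mean was replicate 1 (mean deviation 0.56) and the library with all 10 below was replicate 2 (-0.62). For M2 they were replicate 1 (0.42) and replicate 3 (-0.62). The other *Prep*-/- libraries were split, with 2 members above the mean in M0 replicate 2, 6 in M1 replicate 3 and 8 in M2 replicate 2. Among *Prep*+/- libraries all 10 lay above the mean in M1 replicate 3, none did in M0 replicate 2 or M1 replicate 2, and the other 6 were split. The same deviation over all genes was not computed. The mean deviations of the 9 *Prep*+/- libraries lay between -0.18 and 0.18, a narrower range than in the knockout, which was not tested.

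**Figure D4:**
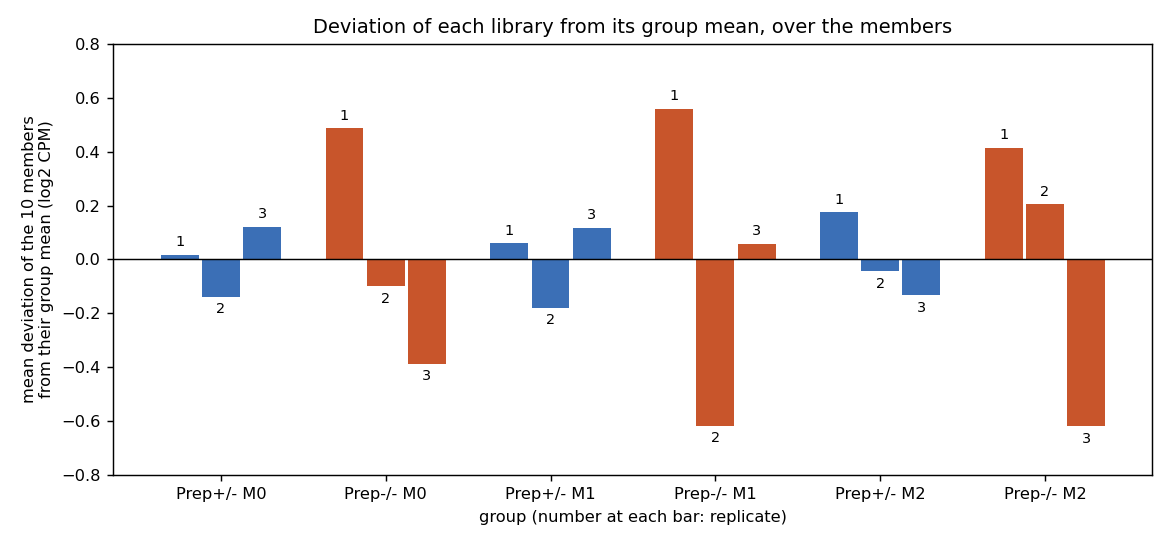
Mean deviation of the 10 members from their group mean in log2 CPM (vertical axis) for each of the 18 libraries, with the replicate number at each bar, *Prep*+/- in blue and *Prep*-/- in orange. The *Prep*-/- bars reach from -0.62 to 0.56 and the *Prep*+/- bars from -0.18 to 0.18.

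Across the 18 libraries the 45 pairs of members had Pearson correlations of log2 CPM from 0.76 (*Iigp1* with *Gbp2*) to 0.98 (*Gbp5* with *Gbp3*), with a median of 0.92. The libraries fall into 6 groups that differ in treatment and genotype, and all pairs share the same depth and scaling, so the correlations are a description. The 5 genes outside the family whose profile was most like the mean member profile were *Rnf114* (r = 0.99), *Fcgr4* (0.99), *Uba7* (0.99), *Marchf1* (0.98) and *Ifnar2* (0.98), over 18 libraries. *Uba7* encodes the activating enzyme for ISG15, *Ifnar2* a subunit of the type I interferon receptor, and *Fcgr4* an activating Fc receptor. The gene most like *Iigp1* was *Ifit3* (r = 0.99), that for *Igtp* was *Isg20* (0.996), that for *Irgm1* was *Parp10* (0.99) and that for *Gbp2* was *Samhd1* (0.99).

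Other genes of the GBP and IRG family were also among the knockout DEGs. Of 18 family genes counted, 16 were tested, and 11 rose as DEGs in the M0 knockout, and the numbers for M1 and M2 were 14 and 6. The rest did not pass, and 15.4%, 12.3% and 6.37% of all genes rose in M0, M1 and M2. Their median log2 fold changes were 1.49, 1.53 and 0.97, against 0.02, 0.04 and 0.03 over all genes. *Gbp6* held 5, 1 and 2 counts in *Prep*+/- M0 libraries and 65, 41 and 19 in *Prep*-/- M0 libraries (log2 fold change 4.01 ± 0.65, adjusted p = 0.00011). *Gbp4* held 0 counts in all 3 *Prep*+/- M2 libraries against 21, 14 and 10 in the *Prep*-/- M2 libraries. *Tgtp2*, the near-identical copy of *Tgtp1*, was at 1.02 ± 0.485 CPM in *Prep*+/- M0 and 7.50 ± 4.13 CPM in *Prep*-/- M0 (SD, n = 3 each; adjusted p = 0.000478). For the difference of the knockout effect between M1 and M0, 3 of the 16 were called lower, like the 4 members called, and 1 higher (background: 12% higher and 9.15% lower). The 1 called higher was *Gbp8* (difference 1.99 ± 0.63, adjusted p = 0.0304). Under LPS, 10 of the 16 were higher and 1 lower in *Prep*+/- BMDMs (background: 16.7% higher and 20.9% lower). In *Prep*-/- BMDMs 11 were higher and 0 lower (background: 20.9% higher and 21% lower). The lower DEG was again *Gbp8*, with a lower level in *Prep*+/- M1 than in M0 (log2 fold change -2.42 ± 0.51, adjusted p = 0.000703).

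Genes of the interferon pathways moved in part with the members. These lists hold signalling genes and also targets and feedback genes of interferon, and which of them act on the members was not tested. In the interferon-gamma axis, from the receptor to its target regulators, 14 of 15 genes were tested, *Ifng* was not analysed here, and 8 rose as DEGs in the M0 knockout. The numbers for M1 and M2 were 5 and 3, and the rest did not pass. The background was the 15.4%, 12.3% and 6.37% given above, both here and for the other lists below, and the medians over all genes were 0.02, 0.04 and 0.03. The median log2 fold changes were 0.76, 0.47 and 0.36. The largest rise was that of *Ciita*, the class II transactivator, in M0 (4.69 ± 0.55, adjusted p = 7.71e-06) and in M2 (2.47 ± 0.46, adjusted p = 0.000873). In M1 it was that of *Irf1*, the interferon regulatory factor that acts on GBP promoters (1.44 ± 0.27, adjusted p = 0.00102). *Irf1* was higher in the knockout in M0 (1.48 ± 0.27, adjusted p = 0.000358) and M2 (1.16 ± 0.27, adjusted p = 0.00482) too.

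In the type I interferon arm, 8 of 14 genes rose as DEGs in the M0 knockout, and for M1 and M2 the numbers were 5 and 2. The medians by state were 0.73, 0.46 and 0.19. *Isg15* rose most in M0 (2.02 ± 0.35, adjusted p = 0.000201) and *Ticam2*, a TLR4 adaptor, in M2 (1.24 ± 0.20, adjusted p = 0.000307). *Ifnb1*, which encodes interferon-beta, held 13, 5 and 4 counts in *Prep*+/- M1 and 78, 11 and 40 counts in *Prep*-/- M1 libraries. The groups overlapped, and replicate 1 of the knockout was highest for *Ifnb1* as it was for the members (log2 fold change 2.40 ± 0.75, adjusted p = 0.0286). In M0 and M2 libraries *Ifnb1* had 2 counts or fewer.

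Of the 11 genes for ubiquitin-like conjugation, the machinery that directs GBPs and IRGs to vacuoles, the knockout DEGs that rose numbered 3 for M0, 2 for M1 and 1 for M2, which is near the background in M1 and M2. The medians were 0.38, 0.09 and 0.36. *Map1lc3a* rose most in M0 (1.29 ± 0.21, adjusted p = 0.000147), the cargo adaptor *Sqstm1* in M1 (1.01 ± 0.16, adjusted p = 0.000289) and *Gabarapl1* in M2 (1.02 ± 0.14, adjusted p = 9.44e-05). Of the 8 inflammasome genes, the knockout DEGs that rose numbered 4 for M0, 3 for M1 and 2 for M2, and 1 fell, in M1. The medians were 0.56, 0.42 and 0.36. *Ninj1*, which drives membrane rupture, rose most in M0 (1.60 ± 0.16, adjusted p = 1.89e-06) and M2 (1.06 ± 0.16, adjusted p = 0.000189). *Casp4*, which senses intracellular LPS that GBPs help to expose, rose most in M1 (1.13 ± 0.22, adjusted p = 0.00134), and *Nlrp3* was the gene that fell there (-1.04 ± 0.23, adjusted p = 0.00309).

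The same lists were counted under LPS. In *Prep*+/- BMDMs, where 16.7% of all genes were higher in M1 and 20.9% lower, 9 genes of the interferon-gamma axis were higher in M1 than in M0 and 1 lower, 10 of the type I arm were higher and 1 lower, 1 conjugation gene was higher and 1 lower, and 7 inflammasome genes were higher. In *Prep*-/- BMDMs, with a background of 20.9% higher and 21% lower, 8 genes of the interferon-gamma axis were higher and 2 lower, 8 of the type I arm were higher, 2 conjugation genes were higher and 3 lower, and 5 inflammasome genes were higher. *Socs3*, a feedback inhibitor of cytokine signalling, rose most in the interferon-gamma axis of both genotypes (6.89 ± 0.25 in *Prep*+/-, adjusted p = 6.74e-12, and 5.91 ± 0.24 in *Prep*-/-, adjusted p = 2.18e-11). *Ciita* went from 480, 328 and 109 counts in *Prep*-/- M0 libraries to 2, 3 and 2 in *Prep*-/- M1 libraries, and from 20, 11 and 7 to 0, 3 and 0 in *Prep*+/-. *Irf7* rose most in the type I arm of *Prep*+/- cells (6.44 ± 0.43, adjusted p = 4.78e-09), and *Tlr4* was the gene that fell (-0.69 ± 0.12, adjusted p = 0.000106). *Ifnb1* had the largest fitted rise of that arm in *Prep*-/- cells, from 2, 0 and 0 counts in M0 to 78, 11 and 40 in M1. Of the conjugation genes, *Atg5* rose most (0.72 ± 0.08 in *Prep*+/-, adjusted p = 1.71e-06, and 0.81 ± 0.08 in *Prep*-/-, adjusted p = 4.35e-07) and *Gabarapl1* fell most (-0.75 ± 0.14, adjusted p = 0.000279, and -1.10 ± 0.14, adjusted p = 5.86e-06). Of the inflammasome genes *Casp4* rose most, by 1.86 ± 0.23 (adjusted p = 4.26e-06) and 1.92 ± 0.23 (adjusted p = 2.64e-06).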

How the data were processed

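The data were bulk RNA-seq of 18 BMDM libraries, grouped by the genotype and treatment in the labels. Per the study's methods and processing notes, the authors trimmed reads from stranded mRNA libraries with Trimmomatic 0.36, aligned them to GRCm39 with HISAT2 2.2.1.0 and assembled transcripts with stringtie2. The authors deposited whole-number counts per gene symbol without normalization. The annotation, the strand setting and the treatment of reads that match several genes were not given in the sources used here.

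Everything after the counts was computed here. filterByExpr kept 12021 of 16314 genes, and TMM scaled the libraries. A model with a mean for each of the 6 groups, over the 18 libraries together, was tested by edgeR's quasi-likelihood method with Benjamini-Hochberg adjustment. The software was R 4.3.3 with the packages edgeR 4.0.16 and limma 3.58.1. DESeq2, the tool of the study, was run as an alternative in another version (1.42.0). SE is the fold change divided by the root of the F statistic. A group with 3 counts or fewer in every library was treated as at the floor, and intervals from counts cover counting error only. The scripts were tested on simulated counts. Transcripts were compared with blastn 2.17.0, and figures were drawn with matplotlib 3.10.9. The members and gene lists were chosen with earlier results of these data known. Named from each list were the genes with the largest rise and fall in each knockout and LPS comparison, family genes among those called, the genes most like the members, and *Prep*. *Irf1* in M0 and M2 and *Ifnb1* outside M1 were added after their values were seen. Replicate numbers were taken as pairs where every same-numbered pair's deviations correlated above 0.1 over genes. That held for the knockout effect in M2 (0.249 to 0.462) and for M1 against M0 in *Prep*-/- (0.169 to 0.259). No label says what a number marks. The main fit held no replicate term, so its SEs and p-values are unpaired in these comparisons too. A block for the replicate number was fitted only as an alternative.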

Additional observations from a re-analysis of the deposited data

Results flagged for a closer look

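The size of the knockout effect differed between states for 6 of the members by the test of the difference itself (edgeR's quasi-likelihood test of the interaction, Benjamini-Hochberg over all genes tested). Between M1 and M0 the difference on the log2 scale was -1.93 for *Gbp2*, -1.45 for *Gbp3*, -1.61 for *Gbp5* and -1.92 for *Gbp7*, each with the knockout effect positive in both states and smaller in M1. Between M2 and M0 it was -1.03 for *Igtp* and -3.96 for *Iigp1*, with the knockout effect called in M0 and not called in M2. The level of *Iigp1* in M2 rests on 3 to 12 counts per library. Its knockout effect there is thus poorly determined, and the fitted value ran from -0.51 to 0.52 over the alternatives.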

How the results depend on the processing

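Of 1546 values of the members under the alternatives, 1442 kept their direction and their side of the threshold, 57 lost a call, 34 gained one and 13 moved without a call. None changed sign while called. The knockout effect in M0 was called for every member that each alternative tested. Members called higher in the knockout in M1 numbered 8, against 3 when glmTreat tested for a fold over 1.5 and 4 to 10 with a library left out. The *Igtp* call in M1 was lost in 12 of 16 alternatives, such as DESeq2, DESeq2-type size factors, upper quartile scaling and a filter of 1 CPM in 3 libraries. Members lower in M2 than in M0 in *Prep*+/- numbered 1, against 2 with upper quartile scaling, 2 with DESeq2, 2 when only the libraries compared were fitted, 0 with glmTreat and 1 to 2 with a library left out (the addition was *Irgm2*). Members higher in M2 than in M0 in *Prep*-/- numbered 0 by edgeR, against 1 with DESeq2 (*Gbp2*) and 0 to 1 with a library left out. Members whose knockout effect was smaller in M1 than in M0 numbered 4, against 2 with glmTreat and 2 to 6 with a library left out. For M2 against M0 they numbered 2, against 0 with glmTreat, 3 with DESeq2, 3 with no filter on low counts and 0 to 3 with a library left out. The cause of these changes was not tested. Low counts limit *Tgtp1* in all groups and *Iigp1* in M2. For *Tgtp1*, depth and the assignment of reads to its near-identical copy *Tgtp2* cannot be told apart.

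With the replicate number as a block, all 6 knockout calls in M2 and all 10 calls for M1 against M0 in *Prep*-/- were again made, the comparisons where the numbers were taken as pairs. Elsewhere the samples share only a number. There the replicate block gave 2 members lower in M2 in *Prep*+/- and 1 higher in *Prep*-/-, and in M1 the knockout effect was called for *Gbp9* (0.62, adjusted p = 0.0429) and *Tgtp1* (1.45, adjusted p = 0.0266) and not for *Igtp* (0.56, adjusted p = 0.0169, under the fold criterion). The block over all libraries also called the M1 difference of *Iigp1* (adjusted p = 0.0301) and the M2 difference of *Gbp7* (adjusted p = 0.0401), for 5 and 3 calls.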

Other observations

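*Ifi47*, another IRG of the chromosome 11 cluster (Irgd), was in no list and was chosen after its values were seen. It was at 19.8 ± 1.34 CPM in *Prep*+/- M0 and 80.7 ± 37.9 CPM in *Prep*-/- M0 libraries (SD, n = 3 each). On the log2 scale it rose by 2.03 ± 0.34 (adjusted p = 0.000162 by edgeR's quasi-likelihood test). In M2, where 4 of the 5 member IRGs were not DEGs, it was higher in the knockout by 1.73 ± 0.34 (adjusted p = 0.00139).

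The knockout values of the nearest tested protein-coding genes beside the clusters follow. Beside the chromosome 3 cluster, *Pdlim5* differed by -0.56 and *Kyat3* by -0.72 in M0, and *Kyat3* was a lower DEG (adjusted p = 0.0214). Beside the chromosome 5 cluster *Lrrc8b* was a lower DEG in M0 (-1.58 ± 0.12, adjusted p = 3.47e-07) while *Abcg3* differed by -0.30 (adjusted p = 0.478). *Mrpl22*, 4.21 kb before the *Igtp* cluster, differed by 0.00 in M0, -0.09 in M1 and -0.22 in M2 (adjusted p = 0.993, 0.72 and 0.413). *Zfp692*, on the other side of that cluster, differed by -0.58 in M0 (adjusted p = 0.00186) and -0.51 in M2 (adjusted p = 0.0105), under the fold criterion in both. *Trim7*, 9.56 kb from *Irgm1*, was a higher DEG in M1 (2.07 ± 0.44, adjusted p = 0.00215), as was *Zfp62* on the other side of that cluster (0.62 ± 0.19, adjusted p = 0.0168).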
